A study of Mus musculus with 10 samples.

Results

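The mitochondrial ribosomal proteins are the nucleus-encoded protein components of the mitochondrial ribosome, and their genes carry the names Mrpl (large subunit) and Mrps (small subunit) followed by a number. The genes with such a name to which a probe could be matched through RefSeq were taken: 101 of 56605 probes, which measure 78 of the 24556 features tested, 49 Mrpl and 29 Mrps genes. A further 23611 probes had no symbol here, so a member among them would be missed. Genes were taken by name and not by their measured values, although earlier results of these data were known when this group of genes was chosen. Liver RNA of 10 mice was measured on 10 one-colour arrays, 1 mouse per array: 5 mice of the group HFD ethanol and 5 of the group HFD control (HFD, high-fat diet). Both groups were male C57BL/6J mice, an inbred strain, bought at 7 weeks of age and fed a diet with 60% fat (5.5 kcal per g) for 4 months. The HFD ethanol mice also had ethanol in the drinking water during the last 3 months, at 5 g/kg per day in the first week and 10 g/kg per day afterwards, and the HFD control mice drank no ethanol. Each group held 10 mice, and the 5 mice on arrays were drawn from them at random. The comparison asks how livers of mice that drank ethanol differed in RNA from livers under the same diet without it, and livers of mice on a normal diet were not analysed here.

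Mitochondria keep a small genome of their own, whose messenger RNAs all encode subunits of the respiratory chain and of ATP synthase. These are translated inside the organelle by a ribosome whose RNA parts come from that genome and whose proteins are all made in the cytosol from nuclear genes and then imported. In mammals the mitochondrial ribosome has less RNA and more protein than its bacterial relative: some of its proteins descend from bacterial ribosomal proteins, and others are found only in mitochondria. Its translation is needed for oxidative phosphorylation, on which the hepatocyte depends, and hepatic mitochondria are a long-studied site of the effects of ethanol.

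The livers carried the defining RNAs of hepatocytes: Alb and Apoa1 were measured well above background on every array. The share of spots well above background was 55.5% to 59.1%, no spot was saturated, and the 75th percentile of signal was 277.0 to 383.3 units. The arrays lay on 3 slides, of which slide 1 held 1 ethanol and 2 control arrays, slide 2 held 2 control arrays and slide 3 held 4 ethanol arrays and 1 control array. Over all 24556 features the median log2 fold change, ethanol minus control, was 0.060, and 4 features (0.0163%) had an adjusted p under 0.05 in limma. Each level is a log2 ratio of signal over the 75th percentile of its own array, so each gene is compared only with itself across mice. In a piece of liver, fewer cells of a type and less RNA per cell cannot be told apart.

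Most mitoribosomal protein genes read slightly higher in ethanol livers, and none passed the test. The log2 fold change was above 0 for 67 of 78 genes (85.9%), against 62.9% of all features tested and 56.8% of the features with a gene symbol. The median was 0.10, with the central 50% of genes between 0.056 and 0.16, against 0.060 for all features and 0.029 for features with a symbol. The range ran from -0.12 for Mrps28 to 0.36 for Mrpl12. Only 10 genes differed by more than 0.2 on the log2 scale, and 37 differed by less than 0.1. None of the 78 genes reached an adjusted p under 0.05 (limma with Benjamini-Hochberg adjustment over all features), the smallest being 0.278 for Mrpl12. At an unadjusted p under 0.05, 13 genes were higher and 0 lower in ethanol livers, while 9.22% of all features were higher and 4.05% lower by the same rule. Over both directions that is 16.7% of members and 13.3% of all features. In 5 genes every ethanol array lay above every control array, against 1.87% of all features, and in 0 genes every ethanol array lay below, against 0.819%. The direction depended in part on scaling: after quantile normalization 53 of 78 genes were higher, with a median of 0.041, beside 52.1% of all features with a median of 0.0092.

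**Figure D1:**
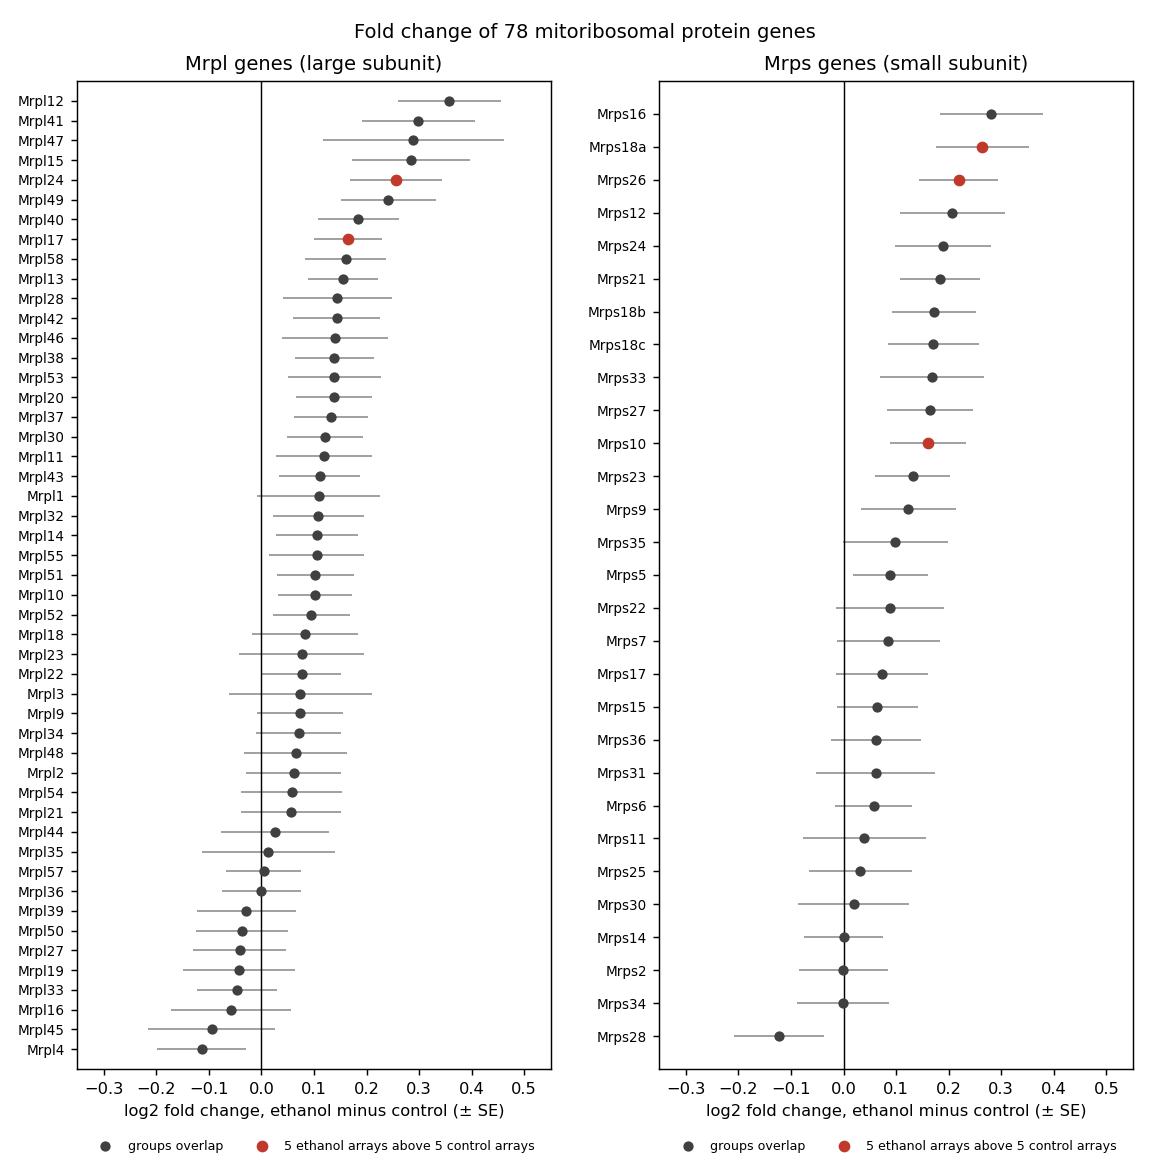
Log2 fold change, ethanol minus control, of the 49 Mrpl genes (left) and the 29 Mrps genes (right), with the moderated standard error as a horizontal line. Most points lie between 0 and 0.2, those in red are the 5 genes whose 5 ethanol arrays all lay above the 5 control arrays, and Mrpl12 is farthest to the right at 0.36.

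The Mrpl and Mrps genes had close medians. Of the 49 Mrpl genes 41 were higher in ethanol livers, with a median log2 fold change of 0.10, and of the 29 Mrps genes 26 were higher, with a median of 0.089. Without Mrps18a, Mrps30 and Mrps36, whose proteins are placed outside the small subunit, 23 of 26 Mrps genes were higher, with a median of 0.094. Genes related to bacterial ribosomal proteins and genes found only in mitochondria also had close medians. Of 48 genes with a bacterial relative 41 were higher, with a median of 0.095, and of 30 mitochondria-specific genes 26 were higher, with a median of 0.10. The differences between Mrpl and Mrps genes and between these classes were not tested.

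Among the large-subunit proteins, Mrpl12 had the widest difference. It is a protein of the stalk to which translation factors bind, and it is also known to associate with the mitochondrial RNA polymerase. Its level was 5.44, 5.25, 5.27, 5.29 and 5.21 in ethanol livers, against 4.82, 4.80, 5.24, 4.93 and 4.89 in control livers. The ethanol values stayed within a narrow band, and only 1 control mouse, replicate 3, reached it. The log2 fold change was 0.36 ± 0.097 (SE), or 1.28-fold, with an unadjusted p of 0.00411 and an adjusted p of 0.278 in limma.

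Mrpl24, Mrpl17 and Mrpl15 are relatives of bacterial large-subunit proteins. Mrpl24 measured 4.39, 4.59, 4.53, 4.54 and 4.39 in ethanol livers, against 4.05, 4.35, 4.38, 4.19 and 4.18 in control livers. The groups did not overlap, although the lowest ethanol mice and the highest control mouse differed by very little. The log2 fold change of Mrpl24 was 0.26 ± 0.087, with an adjusted p of 0.320. Mrpl17 had the tightest values of all members and did not overlap either: 3.19, 3.13, 3.02, 3.07 and 3.13 in ethanol livers, against 2.93, 2.96, 2.93, 2.92 and 2.98 in control livers. Its log2 fold change of 0.16 ± 0.064 was smaller than that of Mrpl24, with an adjusted p of 0.341. For Mrpl15 the values were 2.81, 3.19, 2.97, 3.04 and 2.65 in ethanol livers, against 2.49, 2.54, 2.73, 2.70 and 2.76 in control livers. Here ethanol replicates 1 and 5 fell near or inside the control range. The fold change of Mrpl15 was 0.28 ± 0.11 on the log2 scale (adjusted p 0.341), and its second probe gave 0.23.

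Mrpl41 and Mrpl49 are large-subunit proteins found only in mitochondria. Mrpl41 measured 4.11, 3.79, 4.00, 4.12 and 4.03 in ethanol livers, against 3.52, 3.68, 4.02, 3.64 and 3.69 in control livers. Control replicate 3 stood with the ethanol mice, and the difference was 0.30 ± 0.11 on the log2 scale, or 1.23-fold (adjusted p 0.328). Mrpl49 had values of 1.62, 1.64, 1.32, 1.64 and 1.60 in ethanol livers, against 1.22, 1.42, 1.21, 1.44 and 1.32 in control livers. Ethanol replicate 3 lay within the control range and the other 4 ethanol mice above it, and the difference was 0.24 ± 0.090 (adjusted p 0.337).

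Among genes named for the small subunit, Mrps18a is a special case, since its protein was found in the large subunit in structures of the mammalian mitoribosome. Its level was 3.24, 3.29, 3.29, 3.09 and 3.12 in ethanol livers, against 3.02, 2.71, 2.93, 3.06 and 2.99 in control livers. The groups did not overlap, though ethanol replicates 4 and 5 were close to control replicates 1 and 4. The log2 fold change was 0.26 ± 0.088, or 1.20-fold, with an adjusted p of 0.319. Mrps26, a mitochondria-specific protein, measured 4.16, 4.07, 3.91, 4.08 and 4.05 in ethanol livers, against 3.71, 3.90, 3.88, 3.80 and 3.88 in control livers. It too did not overlap, with ethanol replicate 3 just above control replicate 2, and with a log2 fold change of 0.22 ± 0.075 (adjusted p 0.320).

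Mrps16 and Mrps21 are relatives of bacterial small-subunit proteins. For Mrps16 the values were 4.84, 4.76, 4.85, 4.96 and 4.67 in ethanol livers, against 4.37, 4.53, 4.82, 4.46 and 4.50 in control livers. As in Mrpl12 and Mrpl41, control replicate 3 alone reached the ethanol range. The log2 fold change of Mrps16 was 0.28 ± 0.099, or 1.22-fold, with an adjusted p of 0.326. Mrps21 measured 4.99, 4.96, 4.84, 4.99 and 4.91 in ethanol livers, against 4.62, 4.89, 4.82, 4.71 and 4.72 in control livers. Ethanol replicate 3 lay below control replicate 2, and the difference was 0.18 ± 0.076 (adjusted p 0.351), with 0.28 on the second probe. 

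The remaining genes at an unadjusted p under 0.05 were Mrpl40, Mrpl13 and Mrps10. Mrpl40, found only in mitochondria, measured 2.74, 2.79, 2.77, 2.96 and 2.76 in ethanol livers, against 2.49, 2.61, 2.74, 2.61 and 2.66 in control livers, a log2 fold change of 0.18 ± 0.077. Mrpl13, a relative of a bacterial large-subunit protein, measured 3.79, 3.81, 3.77, 3.82 and 3.66 in ethanol livers, against 3.55, 3.57, 3.67, 3.63 and 3.64 in control livers, a log2 fold change of 0.16 ± 0.067. In both genes control replicate 3 was the highest control mouse, and in both it reached the ethanol range. Mrps10, a relative of a bacterial small-subunit protein, measured 3.29, 3.44, 3.32, 3.39 and 3.40 in ethanol livers, against 3.07, 3.29, 3.22, 3.28 and 3.18 in control livers, a log2 fold change of 0.16 ± 0.072. It was the fifth gene without overlap, with ethanol replicate 1 just above control replicate 2.

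Members that share a place or a role are set side by side here, chosen for their roles after their values were seen. Mrpl10 and Mrpl11 form the base of the stalk that carries Mrpl12, and their log2 fold changes were 0.10 ± 0.070 and 0.12 ± 0.091, against 0.36 ± 0.097 for Mrpl12. The paralogs of Mrps18a that sit in the small subunit, Mrps18b and Mrps18c, stood at 0.17 ± 0.079 and 0.17 ± 0.087. Near the exit tunnel, Mrpl22 and Mrpl23 stood at 0.076 ± 0.075 and 0.077 ± 0.12, Mrpl24 at 0.26 ± 0.087 and Mrpl45 at -0.094 ± 0.12. Mrpl4, a relative of a bacterial protein of the exit tunnel, stood at -0.11 ± 0.084. The value of Mrpl45 was smaller than its SE, and its sign turned within slide 1. Mrpl58, a peptidyl-tRNA hydrolase that acts on stalled ribosomes, stood at 0.16 ± 0.077. Among genes whose human counterparts are mutated in inherited defects of oxidative phosphorylation, Mrpl3, Mrpl44, Mrps16 and Mrps22 stood at 0.074 ± 0.14, 0.026 ± 0.10, 0.28 ± 0.099 and 0.089 ± 0.10. These are examples and not a full list of such genes. Mrps30, which lies in the large subunit despite its name, stood at 0.019 ± 0.11, and Mrps36, later described as a component of the alpha-ketoglutarate dehydrogenase complex, at 0.061 ± 0.086. Closest to 0 were Mrps34, Mrps2, Mrps14 and Mrpl36, each within 0.001 of it.

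**Figure D2:**
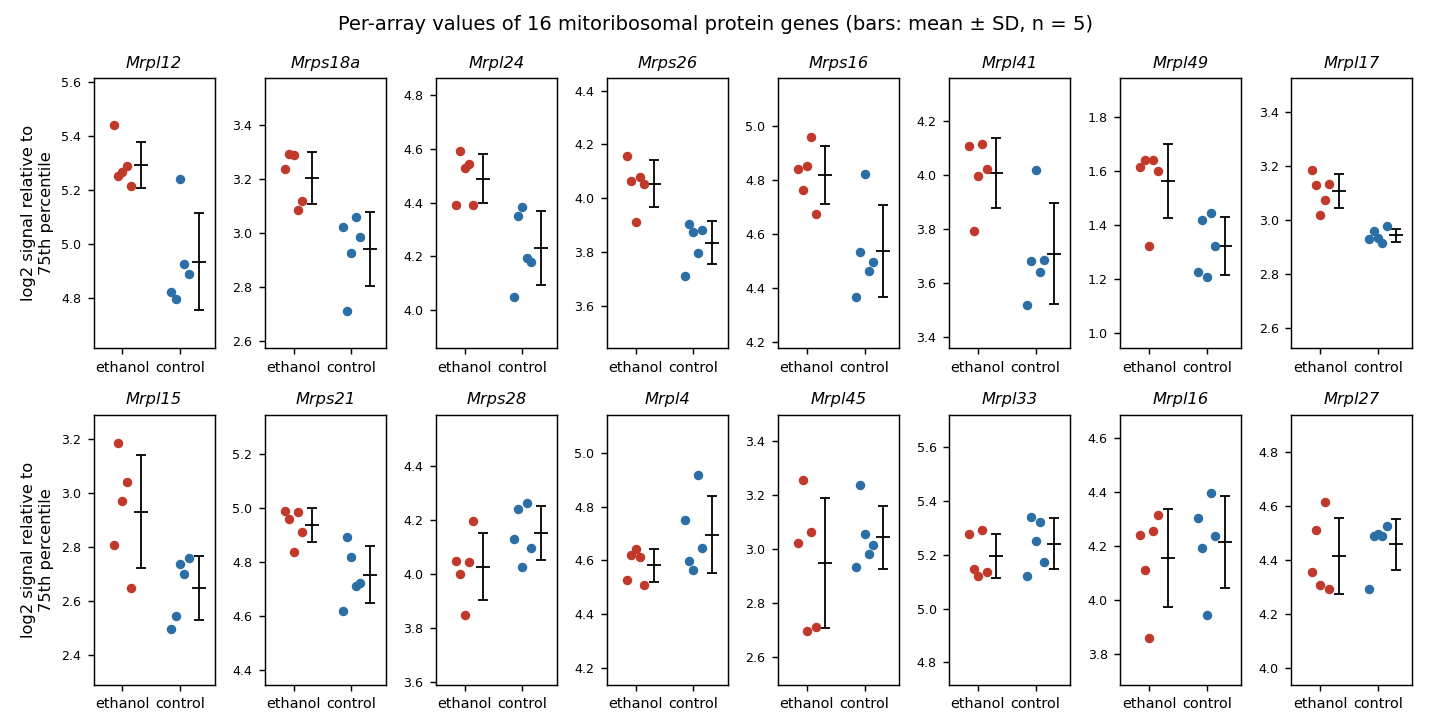
Level in each mouse (log2 of signal over the 75th percentile; points, ethanol red and on the left, control blue and on the right) for the 10 higher and the 6 lower genes with the smallest unadjusted p, with mean ± SD of 5 mice per group. Each panel has its own range of levels but the same span, and the ethanol points lie wholly above the control points in Mrps18a, Mrpl24, Mrps26 and Mrpl17.

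The 11 genes that read lower in ethanol livers differed by 0.12 or less on the log2 scale, and none reached an unadjusted p under 0.05. After quantile normalization Mrpl4 and Mrps28 did, at -0.20 ± 0.087 and -0.19 ± 0.085, with adjusted p of 0.418 and 0.420 in limma. Mrps28, a small-subunit protein, had the largest difference in this direction. It measured 4.05, 4.00, 3.85, 4.04 and 4.19 in ethanol livers, against 4.13, 4.24, 4.02, 4.26 and 4.10 in control livers, a log2 fold change of -0.12 ± 0.086 (adjusted p 0.527), and the groups overlapped widely. Mrpl4, a relative of a bacterial protein of the exit tunnel, measured 4.53, 4.62, 4.64, 4.61 and 4.51 in ethanol livers, against 4.75, 4.60, 4.56, 4.92 and 4.65 in control livers. Control replicate 4 was the highest mouse, and the log2 fold change was -0.11 ± 0.084. Mrpl45, which contacts the inner membrane next to the exit tunnel, measured 3.02, 3.26, 2.70, 3.06 and 2.71 in ethanol livers, against 2.93, 3.24, 3.05, 2.98 and 3.01 in control livers. Ethanol replicates 3 and 5 lay below every control mouse and the others within or above the control range, for a log2 fold change of -0.094 ± 0.12.

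Mrpl33 measured 5.28, 5.15, 5.12, 5.29 and 5.14 in ethanol livers, against 5.12, 5.34, 5.25, 5.32 and 5.17 in control livers, a log2 fold change of -0.046 ± 0.076. Its protein is a small relative of a bacterial large-subunit protein, and the groups overlapped almost fully. Mrpl16 measured 4.24, 4.11, 3.86, 4.26 and 4.31 in ethanol livers, against 4.30, 4.19, 3.94, 4.40 and 4.24 in control livers, a log2 fold change of -0.058 ± 0.11, with replicate 3 the lowest mouse of both groups. Mrpl27, whose bacterial relative reaches towards the peptidyl transferase centre, measured 4.36, 4.51, 4.31, 4.62 and 4.29 in ethanol livers, against 4.29, 4.49, 4.50, 4.49 and 4.53 in control livers, a log2 fold change of -0.042 ± 0.089. All 3 probes of Mrpl27 read lower, with log2 fold changes of -0.042, -0.0082 and -0.079. The signs of Mrpl45, Mrpl33, Mrpl16 and Mrpl27 turned under at least 1 other processing or choice of arrays, so these genes have no settled direction.

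All 101 probes were well above background on all 10 arrays, so no member was lost to the filter on dim probes. Of the 101 probes, 88 read higher and 13 lower in ethanol livers, and the 16 with an unadjusted p under 0.05 were all higher. In 21 genes more than 1 probe could be set side by side, and in all of these but 1 the probes had the same sign. The exception was Mrps2, a relative of a bacterial small-subunit protein: its brighter probe gave -0.00038 ± 0.084 and the other probe 0.21. The moderated standard error lay between 0.064 and 0.17 over the 78 genes, with a median of 0.087, so that the median difference was close to 1 standard error of a single gene. The spread between mice of the same group was widest for Mrpl47, Mrpl3 and Mrpl35, with within-group SDs of 0.290, 0.221 and 0.202. It was narrowest for Mrpl17, Mrpl13 and Mrpl37, at 0.0486, 0.0574 and 0.0695. Mrpl47 had a log2 fold change of 0.29 ± 0.17, the third largest, and its control values spread between 1.41 and 2.38, wider than its ethanol values between 1.91 and 2.36.

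The level of the members as a whole varied between mice of the same group. The mean of the 78 genes, relative to its mean over the 10 mice, was 0.031, 0.11, -0.0063, 0.13 and -0.021 in ethanol livers 1 to 5, against -0.15, -0.041, 0.015, -0.018 and -0.056 in control livers 1 to 5. The group averages were 0.050 ± 0.070 in ethanol livers and -0.050 ± 0.062 in control livers (SD, n = 5 each). All 5 ethanol mice lay above the control average, but ethanol replicates 3 and 5 lay below control replicate 3. Over all 24556 features the group averages were 0.035 and -0.035, and there too all 5 ethanol mice lay above the control average. In the mean of the 78 genes, ethanol replicates 2 and 4 and control replicate 1 were the mice farthest from the rest. In ethanol livers 1 to 5, 56, 70, 46, 76 and 53 of 78 genes were above their control mean, against 7, 43, 57, 55 and 35 genes in control livers 1 to 5. Without control replicate 1 the median log2 fold change of the 78 genes was 0.069, beside 0.055 for all features, and 6 genes (7.69%) in place of 13 had an unadjusted p under 0.05, against 8.65% of all features. Without ethanol replicate 4 the median was 0.079, beside 0.057 for all features, and 7 genes (8.97%) had such a p, against 14.5% of all features. Without ethanol replicate 2 the median was 0.083, beside 0.054, and 8 genes (10.3%) had such a p, against 10.1% of all features. With the group means removed, the correlation between the levels of a pair of members over the 10 arrays had a median of 0.359 over 3003 pairs, with the central 50% between 0.0252 and 0.604. It was 0.561 among respiratory chain genes and 0.355 among cytosolic ribosomal protein genes, and all pairs share the arrays and their scaling.

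**Figure D3:**
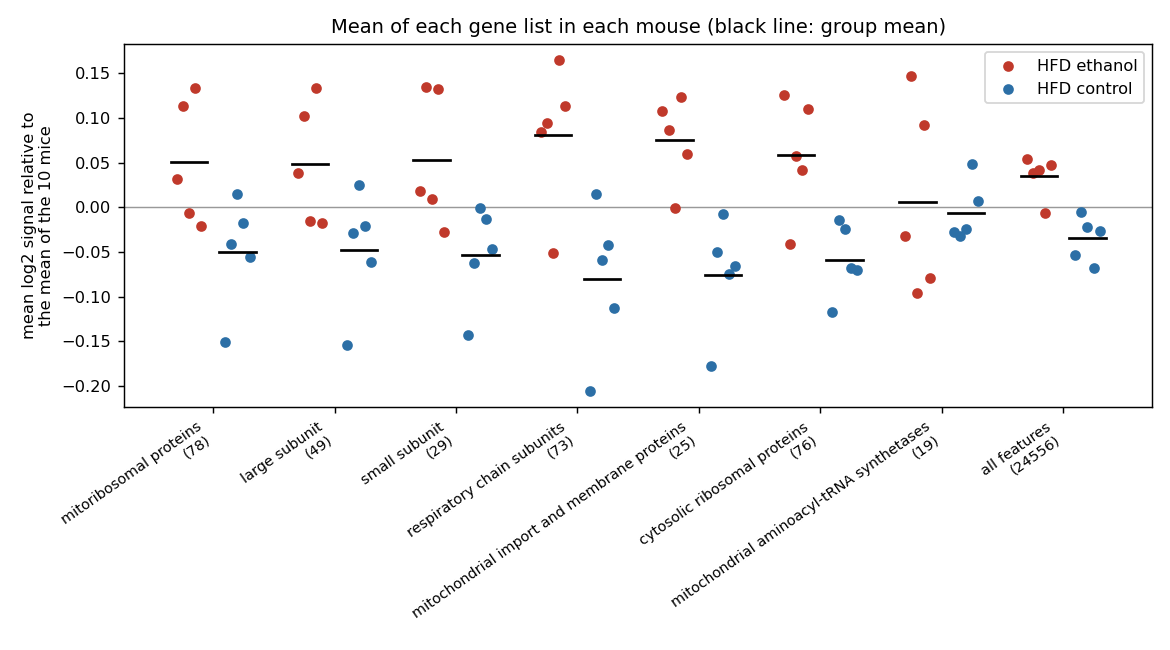
Mean log2 signal of each gene list in each mouse, relative to the mean of the 10 mice (points; ethanol red and on the left, control blue and on the right; black lines, group means; number of genes in brackets). For the 78 mitoribosomal genes the ethanol mice lie between -0.021 and 0.13 and the control mice between -0.15 and 0.015.

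The slide and the group were linked, since slide 2 held only control arrays. With slide as a fixed block the median of the 78 genes was 0.11, and 4 genes (5.13%) had an unadjusted p under 0.05, against 6.44% of all features. Within slide 1 (1 ethanol and 2 control arrays) the median was 0.17, and within slide 3 (4 ethanol arrays and 1 control array) it was 0.055, beside 0.066 and 0.019 for all features. A lone array within a slide is assumed to vary like those of the other group. The column on the slide was linked with the group too: the arrays in column 1 were all ethanol and those in column 4 all control. The column 4 arrays had 75th percentiles of 379.5 to 383.3 units, against 277.0 to 342.7 in the others. Group and column can thus not be fully told apart. With the column as a covariate the median of the 78 genes was 0.11, beside 0.042 for all features.

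The promoters of these genes are shown because known regulators of mitochondrial genes, the factors NRF1, GABP (of the ETS family), YY1 and ESRRA, bind close to the transcription start. RefSeq promoters of GRCm38.p6, from 250 bases before to 50 bases after the start, were found for 69 of the 78 members. Each promoter was searched on both strands for GCATGCGC (NRF1), CCGGAAG (ETS), AAGATGGCG (YY1) and AAGGTCA (ESRRA). A match describes the letters in this window and not a binding site. A gene was counted if any of its promoters held the motif. Of the 69 members 37.7% had the ETS motif, against 17.2% of the tested genes and 9.93% of all 27025 genes with a promoter. The YY1 motif was found for 11.6% of these members, against 2.97% of tested genes and 1.64% of all genes, and the NRF1 motif for 11.6%, against 5.12% and 3.05%. The ESRRA motif was found for 5.80% of these members, against 4.49% and 5.38%. At least 1 of the NRF1, ETS and YY1 motifs was found for 36 members (52.2%), against 23.2% of tested genes and 13.6% of all genes.

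The 4 sequences that follow are the 250 bases upstream of the start in members given above by array, chosen to show each arrangement: Mrpl17 has the ETS and the NRF1 motif, Mrps18a the ETS motif just upstream of the start, Mrps26 the ETS motif on the other strand, and Mrps21 the ESRRA motif on both strands. They are written 5′ to 3′ in the direction of transcription, and capitals mark the motif letters.
Mrpl17 (chr7:105811088-105811337, reverse strand): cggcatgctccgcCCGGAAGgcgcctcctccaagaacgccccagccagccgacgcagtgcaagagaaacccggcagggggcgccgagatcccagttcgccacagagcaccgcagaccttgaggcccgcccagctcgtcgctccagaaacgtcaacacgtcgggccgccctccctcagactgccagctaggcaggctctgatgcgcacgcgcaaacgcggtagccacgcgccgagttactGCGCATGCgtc
Mrps18a (chr17:46110754-46111003, forward strand): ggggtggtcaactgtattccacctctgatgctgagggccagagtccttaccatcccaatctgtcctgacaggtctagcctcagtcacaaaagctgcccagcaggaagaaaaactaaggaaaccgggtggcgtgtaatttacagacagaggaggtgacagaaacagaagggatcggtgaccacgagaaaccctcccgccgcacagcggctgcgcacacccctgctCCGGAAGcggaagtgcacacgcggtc
Mrps26 (chr2:130563507-130563756, forward strand): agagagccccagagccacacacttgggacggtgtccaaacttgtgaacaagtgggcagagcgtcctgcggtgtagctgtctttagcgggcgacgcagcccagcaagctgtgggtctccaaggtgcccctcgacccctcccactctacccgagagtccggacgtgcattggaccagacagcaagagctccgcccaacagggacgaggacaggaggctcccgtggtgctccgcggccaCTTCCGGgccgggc
Mrps21 (chr3:95871515-95871764, reverse strand): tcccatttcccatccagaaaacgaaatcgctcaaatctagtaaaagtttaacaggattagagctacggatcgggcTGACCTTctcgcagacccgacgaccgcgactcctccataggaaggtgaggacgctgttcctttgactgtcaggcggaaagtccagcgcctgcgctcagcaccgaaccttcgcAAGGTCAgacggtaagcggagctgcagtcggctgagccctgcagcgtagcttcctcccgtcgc

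Counted from the start, with -1 the last base before it, the first motif base of Mrpl17 lies at -237 (ETS) and -11 (NRF1), that of Mrps18a at -26 and that of Mrps26 at -14. In Mrps21 the ESRRA motif begins at -175 and at -63. Past the printed stretch, Mrps18a also holds the YY1 motif and Mrps21 the ETS motif within the 50 bases after the start. The upstream stretches of Mrpl12, Mrpl24, Mrpl41, Mrpl49 and Mrps10 held none of the motifs, while Mrpl12 holds the ESRRA motif after the start, at 34.

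Median fold changes of members with and without a motif lay between 0.089 and 0.14. Of 26 genes with the ETS motif 24 were higher in ethanol livers, with a median log2 fold change of 0.12, against 38 of 43 genes without it, with a median of 0.089. With the YY1 motif 8 of 8 genes were higher, with a median of 0.14 against 0.10 without it. With the NRF1 motif 6 of 8 were higher, with a median of 0.089 against 0.11. With the ESRRA motif 4 of 4 were higher, with a median of 0.12 against 0.10. Over all tested genes with the motif, members or not, the median was 0.032 for ETS, 0.059 for YY1, 0.034 for NRF1 and 0.036 for ESRRA. Of all features with a gene symbol 56.8% were higher, with a median of 0.029. The differences between genes with and without a motif were not tested.

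**Figure D4:**
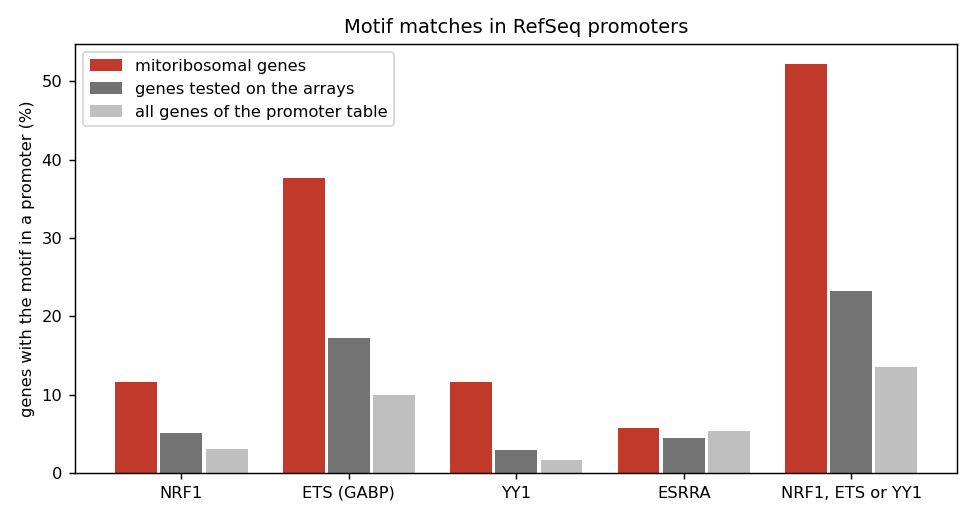
Share of genes (percent) with each motif on either strand of a promoter (from 250 bases before to 50 bases after the start), for mitoribosomal genes, genes tested on the arrays and all genes of the promoter table. The ETS bar reaches 37.7% for mitoribosomal genes, 17.2% for tested genes and 9.93% for all genes.

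The rest of the mitochondrial gene expression machinery was mixed. Mitoribosomal proteins with other names (Dap3, Chchd1, Aurkaip1, Ptcd3 and Gadd45gip1) were higher in 5 of 5 cases, with a median log2 fold change of 0.17 and none at an unadjusted p under 0.05. Among them Aurkaip1 stood at 0.17 ± 0.082 and Chchd1 at 0.22 ± 0.11. Of 14 mitochondrial translation factors 10 were higher, 2 of them at an unadjusted p under 0.05: Mtrf1l, a release factor (0.23 ± 0.087), and Tufm, the elongation factor that brings aminoacyl-tRNA to the ribosome (0.19 ± 0.080). Those 2 are 14.3% of the list, against 9.22% of all features higher by this p. The median of the 14 factors was 0.086. The mitochondrial aminoacyl-tRNA synthetases had no settled direction: 9 of 19 were higher, with a median of -0.011, but 13 of 19 were higher with slide as a fixed block, with a median of 0.073. The 2 with the smallest p, Ears2 (0.25 ± 0.073) and Fars2 (0.23 ± 0.076), charge glutamate and phenylalanine tRNAs. Their groups did not overlap, but they were picked for their small p. Every ethanol array lay above every control array in 1.87% of all features. Of 26 mitoribosome assembly genes 19 were higher, with a median of 0.071, and the smallest p values were those of Trub2, a pseudouridine synthase (0.24 ± 0.096), and Ybey, an RNA processing protein (0.30 ± 0.13). Of 20 genes of mitochondrial transcription and RNA stability 16 were higher, with a median of 0.042, led by Elac2, which trims tRNA ends (0.22), and Slirp, which protects mitochondrial mRNAs (0.20). None of these genes had an adjusted p under 0.05 in limma.

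Respiratory chain and import genes had medians of 0.17 and 0.15, beside 0.10 for the mitoribosomal genes. After quantile normalization these medians were 0.047, 0.073 and 0.041, and within slide 3 they were 0.028, 0.078 and 0.055, so their order depended on the processing. All 73 measured respiratory chain and ATP synthase subunits were higher in ethanol livers, with a median log2 fold change of 0.17, 23 at an unadjusted p under 0.05 and 10 with no overlap between groups. Those 23 are 31.5% of the list, against 9.22% of all features higher by this p. Of all features, 1.87% had every ethanol array above every control array, and 62.9% were higher. Ndufs4, a complex I subunit, stood at 0.30 ± 0.085 and Atp5d, an ATP synthase subunit, at 0.23 ± 0.069. All 25 import and inner membrane genes were higher, with a median of 0.15 and 6 (24%) at an unadjusted p under 0.05, such as Timm23, the channel of the inner membrane translocase (0.26), and Timm8b (0.26). Cytosolic ribosomal proteins, which serve translation outside mitochondria, were higher in 73 of 76 genes, with a median of 0.11. At an unadjusted p under 0.05 there were 9 (11.8%, against 9.22% of all features). Rps14 (0.31 ± 0.10) and Rps7 (0.23 ± 0.081) had the smallest p. The cytosolic list had no settled direction: after quantile normalization 36 of 76 genes were higher with a median of -0.0041, and 58 of 73 respiratory chain genes were. None of these genes had an adjusted p under 0.05, and the differences between lists were not tested.

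Genes known to drive mitochondrial gene expression had no settled direction. Of 11 regulators 5 were higher and 6 lower in ethanol livers, with a median of -0.014 and none at an unadjusted p under 0.05, and with slide as a fixed block 6 were higher, with a median of 0.068. Ppargc1a, the coactivator of mitochondrial biogenesis, stood at -0.19 ± 0.15 and Creb1 at -0.14 ± 0.10. Of 11 genes of the mitochondrial unfolded protein response 9 were higher, with a median of 0.13, for example the proteases Clpp (0.17) and Afg3l2 (0.15). RNAs encoded by the mitochondrial genome itself were not analysed here.

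No marker gene of the liver's cell types had an adjusted p under 0.05 in limma, and the lists were not tested. Stellate cell and fibroblast markers were lower in ethanol livers in 9 of 10 genes, with a median of -0.35. At an unadjusted p under 0.05, 6 were lower (60%, against 4.05% of all features), and the collagen genes Col1a1 and Col1a2 stood at -1.90 and -1.43. The mean of these 10 genes, relative to the 10 mice, ran from -0.78 to 0.087 in ethanol livers, against 0.052 to 0.56 in control livers. Cholangiocyte markers were lower in 3 of 4 genes (median -0.53) and lymphocyte markers in 6 of 8 (median -0.20). The mean of the cholangiocyte markers ran from -0.66 to 0.47 in ethanol livers, against -0.092 to 0.66 in control livers. Hepatocyte markers were higher in 5 of 8 genes (median 0.040), macrophage markers in 4 of 11 (median -0.026) and endothelial markers in 3 of 8 (median -0.018). The direction of these lists was not settled: with the column on the slide as a covariate 0 of 8 hepatocyte markers were higher (median -0.23), 11 of 11 macrophage markers (median 0.43), 6 of 8 endothelial markers (median 0.13) and 4 of 8 lymphocyte markers (median -0.0016). Within slide 1, 1 of 11 macrophage markers was higher (median -0.37), and within slide 3 all 11 were (median 0.49). Stellate markers kept a median below 0 under each of these, from -0.49 within slide 1 to -0.25 with the column covariate. The number of stellate markers that were higher moved, from 1 of 10 to 4 with the column covariate, 4 within slide 3 and 0 within slide 1. The genes with the smallest p of these lists were Apob (-0.25) and Apoa1 (-0.22) for hepatocytes, Clec4f (0.42) and Cd68 (-0.25) for macrophages, Pecam1 (0.32) and Eng (-0.16) for endothelium, Cd79b (-0.39) and Ms4a1 (-0.22) for lymphocytes, and Sox9 (-0.66) and Spp1 (-1.08) for cholangiocytes. The part of these cell types in the values of the mitoribosomal genes was not tested.

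**Figure D5:**
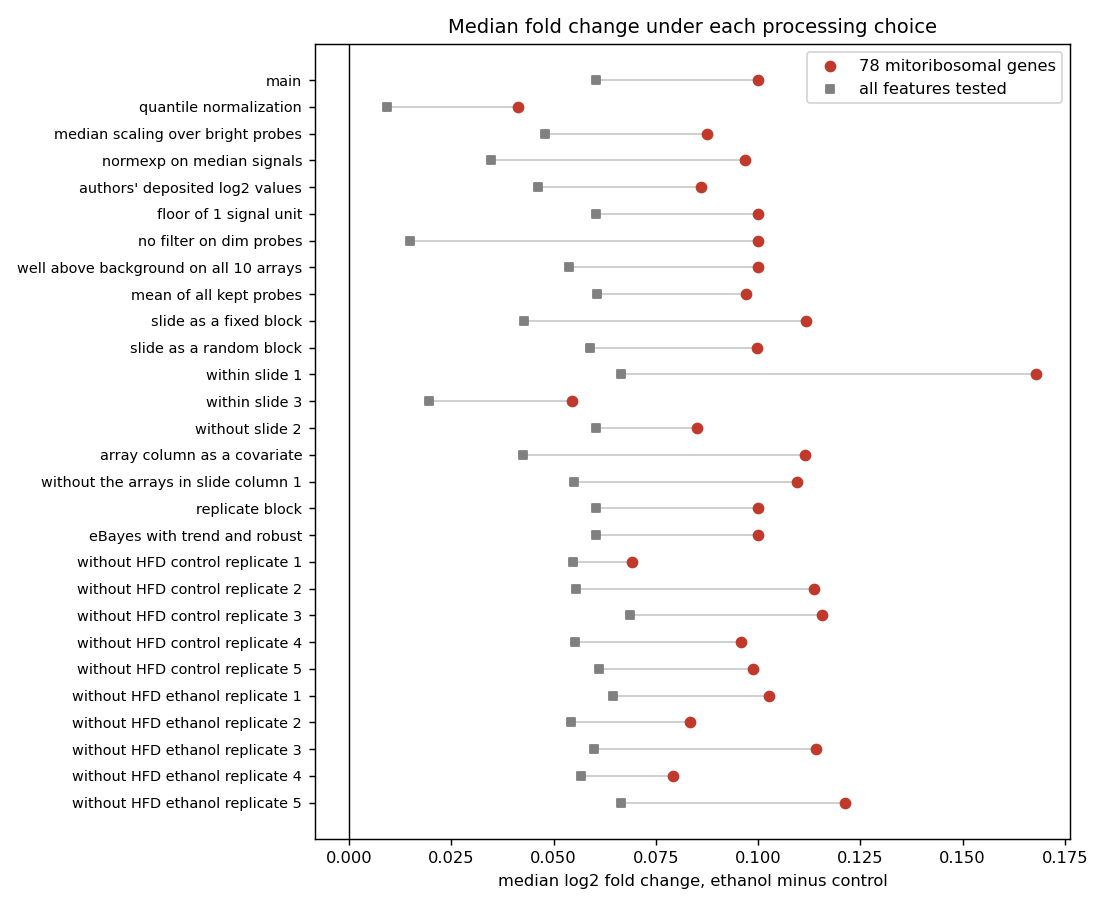
Median log2 fold change, ethanol minus control, of the 78 mitoribosomal genes (red circles) and of all features tested (grey squares) under the processing reported here (top line) and each alternative. The mitoribosomal median lies right of that of all features in every line, at 0.041 after quantile normalization and at 0.17 within slide 1, and the gap is 0.014 without control replicate 1.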

How the data were processed

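Liver RNA (150 ng per mouse) was labelled with Cy3 and hybridised to one-colour arrays, per the labels' protocols. For each array the authors deposited a scanner table of spot intensities (linear scale). These were made, per the file headers, with Agilent Feature Extraction 10.7.3.1 on an array designed on mm9, and the processed intensity is already background-subtracted. The authors also deposited a table on a log2 scale whose differences between arrays equal those of log2 processed intensity over the 75th percentile (r of 1 for every array, computed on 27809 bright probes). The medians of its columns were 0.015, -0.0036, -0.012, -0.0020 and 0.051 for ethanol replicates 1 to 5 and -0.12, 0.081, 0.017, -0.074 and -0.071 for control replicates 1 to 5. Its direction is thus settled, while its arrays are centred slightly differently from the scaling used here. The centre of each probe in it is unknown and cancels between groups, and how it was made is not stated in the labels or headers.

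Spots of controls and 77 to 96 outlier spots per array did not enter. Processed intensities were scaled by the array's 75th percentile, a floor of 4 signal units was set after scaling, and log2 was taken. A probe was kept if 4 or more of the 5 arrays of either group had it well above background (31110 of 56605 probes). The scanner tables carry accessions and no gene names, so genes were named through the RefSeq table of GRCm38.p6, where 32994 probes had 1 symbol and 23611 had none here. The brightest kept probe stood for each gene, and probes without a symbol were grouped by accession. The fit used lmFit and eBayes of limma 3.58.1 (R 4.3.3), with Benjamini-Hochberg adjustment over 24556 features and a threshold of 0.05. Standard errors (SE) are the moderated ones of limma.

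Values by mouse are given for the 10 higher and 6 lower members with the smallest unadjusted p, and for the 3 others at an unadjusted p under 0.05. Also named are members with probes of opposite sign, the 3 widest and 3 narrowest in spread, those with a mouse far from its group, and the 2 genes with the smallest p of each other list. Members named for a role, the bacterial relatives and the neighbouring genes were added after values were seen. The members and lists were chosen with earlier results of these data known. Alternatives covered the normalization, background correction (normexp with an offset of 50 on the median signals), floor, dim-probe filter, probe rule, slide, column on the slide, replicate number and each mouse left out. The number of arrays limits the precision.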

Additional observations from a re-analysis of the deposited data

Results flagged for a closer look

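In 6 of 156 groups of 5 mice (78 genes, 2 groups each) 1 mouse lay far from the other 4 by Dixon's criterion at the 95% level, which by chance marks about 1 in 20 groups. In ethanol livers Mrpl13 was lowest in replicate 5, at 3.66 against 3.77 to 3.82 in the other ethanol mice. Mrpl40 was highest in ethanol replicate 4, at 2.96 against 2.74 to 2.79. Mrpl49 was lowest in ethanol replicate 3, at 1.32 against 1.60 to 1.64, and Mrps25 was lowest in the same mouse, at 2.84 against 3.06 to 3.15. In control livers Mrpl23 was highest in replicate 2, at 4.81 against 4.38 to 4.48, and Mrpl27 was lowest in replicate 1, at 4.29 against 4.49 to 4.53. The log2 fold change of Mrps25 was 0.032 ± 0.098.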

How the results depend on the processing

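The count of mitoribosomal genes with an adjusted p under 0.05 was 0 under all 28 alternatives, 10 of which left out 1 mouse each. Fits within slide 1 or slide 3 aside, the fewest members with an unadjusted p below 0.05 came with slide as a fixed block. These were 4 members (5.13%), against 6.44% of all features. The most came without the dim-probe filter: 25 members (32.1%), against 9.08% of all features. In that fit 67 members were higher and the median was 0.10, both unchanged. Moderated standard errors were smaller there, for example 0.052 in place of 0.075 for Mrps26, so the higher count does not reflect larger differences. The number of higher genes was 60 to 69 with 1 mouse left out and 50 to 70 under the others, and the median log2 fold change was 0.069 to 0.12 with 1 mouse left out and 0.041 to 0.17 under the others, the highest being within slide 1. Signs were followed gene by gene only for the 10 higher and 6 lower members with the smallest unadjusted p, and turned for 4 of these. Within slide 1 the log2 fold change was 0.064 for Mrpl45, 0.046 for Mrpl33 and 0.11 for Mrpl27. For Mrpl16 it was 0.11 when the slide column entered the fit and 0.056 with the mice of slide column 1 left out. With 1 mouse left out Mrpl16 stood at -0.13 to 0.016, above 0 without ethanol replicate 3. Other members turned too: after quantile normalization 53 genes were higher in place of 67. With the replicate number as a block, 0 members passed, 6 (7.69%, against 15.5% of all features) had an unadjusted p under 0.05, 67 were higher, the median was 0.10, and 0 of all features passed in place of 4. The labels state no pairing of mice by number, and so few correlations cannot show whether there is one. The deviations of same-numbered mice correlated at 0.20, 0.10, 0.28, 0.070 and -0.14, and 2 of 5 numbers matched best. The smallest adjusted p of any of the 78 genes under an alternative fitted by gene was 0.148, without control replicate 2. Of the 78 differences 35 were smaller than 1 SE and 17 were 2 SE or more, and none was called.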

Other observations

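For 26 of the 69 members with a promoter (37.7%), the start of another gene lay within 1000 bases on the opposite strand, against 17.5% of tested genes and 12.2% of all genes in the RefSeq table. Mrpl46 and Mrps11 are such neighbours of each other. In 22 pairs the neighbour was measured and not itself a member. Of these 22 neighbours 13 were higher in ethanol livers, with a median log2 fold change of 0.026. That is near all features with a gene symbol, of which 56.8% were higher, with a median of 0.029. The members of these pairs had a median of 0.11. Mrpl49 (0.24) starts 192 bases from Fau (0.20), which encodes a cytosolic ribosomal protein fused to a ubiquitin-like protein. Mrpl47 (0.29) starts 308 bases from Ndufb5 (0.17), a complex I subunit, and Mrps12 (0.21) 147 bases from Sars2 (0.14), the mitochondrial seryl-tRNA synthetase. Other neighbours read in the opposite direction, such as Hira (-0.13) beside Mrpl40 (0.18) and Mitd1 (-0.21) beside Mrpl30 (0.12). These neighbours were chosen after their values were seen.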
